A study of Drosophila melanogaster with 2 samples.

Results

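The 9 genes described here build the centromere and the kinetochore of Drosophila melanogaster: cid, Cenp-C, cal1, Ndc80, Nuf2, Spc25, Mis12, cmet and cana. They were chosen by name, 9 of 13945 protein-coding genes on the main chromosome arms. The rule uses no measured value, but earlier results of these data were known when the genes were chosen. The data are ChIP-seq regions for the transcription factor E2f1 in whole embryos aged 0 to 24 hours that carry an E2f1-eGFP fusion gene, precipitated with an antibody against GFP. There was 1 group with 2 biological replicates of the same strain, E2f1-GFP, and no other genotype, stage or treatment. The material was the whole organism, so the tissues and stages of the embryo are mixed in each library. The labels describe the flies as transgenic and give no promoter for the fusion. The files hold regions and not reads, so the depth of each library is unknown and intervals for counting error could not be given.

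The centromere is the stretch of chromatin on which the kinetochore assembles, and the kinetochore is the protein machine that holds each chromosome to spindle microtubules during division. A centromere-specific form of histone H3 marks the site, inner kinetochore proteins read that mark, and outer proteins reach from there to the microtubule. E2F factors are known for switching on genes of DNA synthesis before S phase, and in many animals some genes of mitosis are among their targets.

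A region was assigned to a gene when its summit lay inside the gene or within 1 kb of it. Each of the authors' 4 thresholded sets held regions with a global IDR of 0.01 or lower. The global IDR (irreproducible discovery rate) is the share of regions ranked as high or higher that is expected not to recur between the inputs compared. Replicate 1 had 3779 regions and replicate 2 had 3280. Over both replicates together the authors gave a conservative set of 4439 regions, called the reproducible set here, and a larger set of 5167. Behind each set stands a ranked list of 71193 to 120213 candidate regions, with a median height of 12.6 to 21.5. Region heights are the authors' scores, and the heights in the reproducible and larger sets are for both replicates together.

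E2f1-eGFP regions at these genes were low: every member region was under the median height of its set, which was 113 in the reproducible set, 102 in the larger set, 75.4 in replicate 1 and 65.1 in replicate 2. In the reproducible set 2 of 9 members had a region, cmet and cana, and it was the same single region, between their divergent start sites. Of all 13945 coding genes 27.4% had a region by this rule, against 22.2% of the members, so the members' share was near the background. In the larger set 4 of 9 (44.4%) had one (cid, cal1, cmet and cana; 30.1% of coding genes). In the set of replicate 1 there was 1 of 9, cana (24.4% of coding genes), and in that of replicate 2 there were 3 of 9 (33.3%), Mis12, cmet and cana (22.4% of coding genes). Cenp-C, Ndc80, Nuf2 and Spc25 had a region in none of the 4 sets, so 5 of 9 members had a region in at least 1 set, as did 32.6% of coding genes. With 2 libraries the spread of a single region is poorly known, so the values of both replicates are given side by side and no test was made.

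The share of coding genes with a region differed by gene length, and the cause was not tested. In the reproducible set 46.3% of coding genes of 5 kb and over had a region. Of the 3 members in that class cmet and cana did, through a shared summit outside both genes, and Cenp-C did not. Of coding genes under 2 kb 16.5% had a region, and none of the 4 members of that length, cid, Nuf2, Spc25 and Mis12, did. With the summit required within 500 bp of a start site, 1 member, cmet, had a region in the reproducible set, where 17.6% of coding genes had one. By that rule the larger set had 3, cid, cal1 and cmet (19.7% of coding genes), replicate 1 had 0 (15.8% of coding genes) and replicate 2 had 2, Mis12 and cmet (13.8% of coding genes).

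At a looser limit, a global IDR of 0.05 in the ranked list behind the reproducible set, 5 of 9 members had a region: Cenp-C, cal1, Spc25, cmet and cana. By the same limit 34.3% of coding genes had one. In the list behind the larger set 5 of 9 did (cid, cal1, Spc25, cmet and cana; 36.6% of coding genes). The list of replicate 1 had 4, cid, cal1, Spc25 and cana (31.0% of coding genes), and that of replicate 2 had 3, Mis12, cmet and cana (26.5% of coding genes). This limit was chosen after the values were seen. In the list behind the reproducible set the cmet and cana region stood at 0.00799, just inside the threshold, Spc25 at 0.0140 and cal1 at 0.0217 just outside it, Cenp-C at 0.0479 and cid at 0.103. Ndc80 at 0.411 and Mis12 at 0.450 were far from it, and Nuf2 had no candidate in the list.

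**Figure D1:**
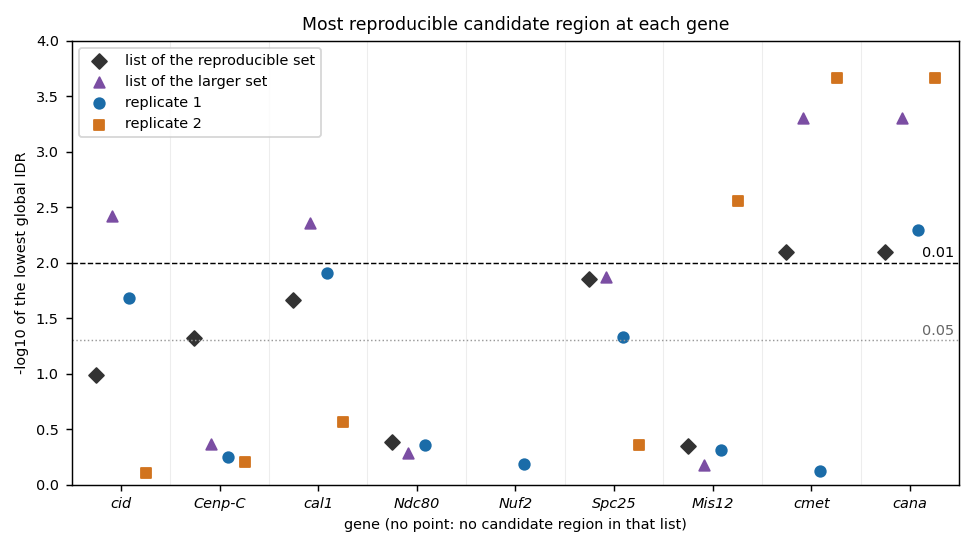
The vertical axis is -log10 of the lowest global IDR among the candidate regions inside each gene or within 1 kb of it, for the 9 genes on the horizontal axis and the 4 ranked lists by marker; the dashed line is an IDR of 0.01 and the dotted line 0.05. The list of the reproducible set puts cmet and cana above the dashed line, and Cenp-C, cal1 and Spc25 between the lines.

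The protein that marks the centromere is encoded by cid, the fly CENP-A, a histone H3 variant. The gene (FBgn0040477, chromosome 2R, 13485617 to 13486631, plus strand) starts 226 bp from the divergent gene cbc. In the larger set it had 1 region (13485336 to 13485679) of height 63.2, with 12.4% of that set lower and an IDR of 0.00377. The summit was intergenic, 109 bp upstream of the cid start site and 117 bp from that of cbc, so 1 summit counts for both genes. In the list behind the reproducible set the same region had an IDR of 0.103.

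The heights of the replicates lay apart at cid. The highest candidate within 500 bp of the start site was 55.6 in replicate 1, with its summit 140 bp upstream of the cid start and 86 bp from that of cbc (IDR 0.0208). In replicate 2 it was 18.6, with its summit 232 bp away from that of replicate 1, in the coding exon 92 bp downstream of the start (IDR 0.782). The lists behind the reproducible and larger sets held a separate candidate near each of these summits. Their heights were 63.2 at 109 bp upstream of the start and 30.6 at 91 bp downstream. Replicate 2 had no candidate within 1 kb upstream of the cid start. The 2 heights are thus from different spots, and replicate 1 was the higher by a ratio of 2.98. Of 6408 coding genes with a candidate at the start in the lists of both replicates, 92.0% had a lower ratio. The median ratio over those genes was 1.32 (quartiles 0.984 and 1.90), so each ratio is given beside that median. A match to the E2F consensus, TTCCCGC, lay in the cid region, 139 bp from the summit and 30 bp downstream of the start site.

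The Cenp-C gene encodes the inner kinetochore protein that binds CENP-A chromatin and carries the outer complexes. It lies on chromosome 3R (FBgn0266916, 8564105 to 8569248, plus strand), and the nearest start site of another coding gene is 1269 bp away. Its best candidate (8563861 to 8564204) had a height of 51.6 over both replicates and an IDR of 0.0479 in the list behind the reproducible set. The summit was intergenic and 72 bp upstream of the start. The candidate nearest to it was 36.3 in replicate 1 and 19.3 in replicate 2, with summits 35 bp apart. Both replicates thus placed a weak candidate at the same spot, but in neither was it reproducible by the authors' limit, with IDRs of 0.676 and 0.821. In the list behind the larger set its IDR was 0.766. The remaining candidates along the gene were 4 in the list behind the reproducible set, the highest of them 29.8.

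The cal1 gene (FBgn0038478, chromosome 3R, 17088280 to 17091938, plus strand) encodes the assembly factor that loads CENP-A onto fly centromeres. Its region in the larger set (17088013 to 17088356) had a height of 72.0, with 22.1% of the set lower and an IDR of 0.00436. The summit was intergenic, 95 bp upstream of the start site, with no other coding start closer than 2672 bp. In the list behind the reproducible set its IDR was 0.0217. The highest candidate at the start was 49.4 in replicate 1 (IDR 0.0123) and 21.2 in replicate 2 (IDR 0.806), with summits 70 bp apart. Replicate 1 was again the higher, by a ratio of 2.33, above that of 84.7% of those 6408 genes. Among the members cal1 had the E2F match closest to its start site, TTGGCGC at 17088272 to 17088278, its middle 5 bp upstream of the start and 90 bp from the summit.

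The stretches that follow are shown because they hold those summits; each ends at the base before the start site of its gene, in the gene's own direction, and leaves out exons. The genome is RefSeq's Release 6 assembly, the same build as the files. Capitals mark the E2F consensus (TTNNCGC on either strand, each N being C or G) in cal1, and in Cenp-C, which has none, the core that lies within it (NNCGC on either strand, each N again C or G), here as overlapping matches.
cal1 (chr3R:17088013-17088279, plus strand): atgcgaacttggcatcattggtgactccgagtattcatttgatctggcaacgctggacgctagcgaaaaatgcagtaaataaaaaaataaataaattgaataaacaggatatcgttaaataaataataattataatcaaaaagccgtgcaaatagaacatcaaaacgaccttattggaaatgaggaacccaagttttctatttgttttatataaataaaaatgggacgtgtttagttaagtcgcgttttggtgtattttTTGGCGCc
Cenp-C (chr3R:8563861-8564104, plus strand): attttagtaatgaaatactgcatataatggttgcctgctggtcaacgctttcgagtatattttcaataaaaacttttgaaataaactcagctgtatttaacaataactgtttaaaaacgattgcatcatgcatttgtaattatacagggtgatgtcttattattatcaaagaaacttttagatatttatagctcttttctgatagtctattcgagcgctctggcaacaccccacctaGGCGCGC

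Both stretches are AT-rich, with 33.0% G and C in cal1 and 33.6% in Cenp-C, and in both the capitals lie at the very end, next to the start site. The summit is base 173 in each. The longer E2F word TTTGGCGC was present at cal1 alone among the 9 promoters, taken as 250 bp before to 50 bp from the start site. The consensus with such a T before it, in any of its forms, was in 6.43% of the promoters of all coding genes. For cana, which has 3 start sites, the outermost was used. The highest candidate at a cana start, 22.2 with an IDR of 0.883 in the list behind the reproducible set, held TTTGCCGC, 122 bp from its summit. The consensus was in 3 of the 9 promoters, those of cid, cal1 and Ndc80, and in 14% of all coding promoters. The core was in all 9 and in 59.5% of all coding promoters. Of the whole regions in the reproducible set 14.8% held the consensus. A match is a description of the letters and not evidence of binding.

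Mis12 encodes a subunit of the Mis12 complex, which joins the inner kinetochore to the Ndc80 complex. The gene (FBgn0035725, chromosome 3L, 6968035 to 6969048, minus strand) has its start 610 bp from the divergent gene CG9953. In the set of replicate 2 it had a region (6968912 to 6969215) of height 33.7 with an IDR of 0.00279, near the bottom of that set, where 4.48% of regions were lower. Its summit was 16 bp upstream of the start site. In replicate 1 the highest candidate at the start was 16.8 with an IDR of 0.624, and the summits were 89 bp apart. Here replicate 2 was the higher, by a ratio of 2.01; the ratio of replicate 1 over replicate 2, 0.498, was lower in 2.54% of those 6408 genes only. Both series lists had a candidate at the start of Mis12 with a height of 50.3, and its IDR was 0.698 in the list behind the reproducible set. A second candidate, 66.7 in height over both replicates, lay 80 bp from the CG9953 start and 530 bp from that of Mis12 (IDR 0.450). At that spot replicate 1 had 20.8 and replicate 2 had 45.6.

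The Ndc80 complex is the outer kinetochore part that grips microtubules, and of its subunits Ndc80, Nuf2 and Spc25 are members. None had a region in any set. Ndc80 (FBgn0030500, chromosome X, 13609671 to 13612062, minus strand) has its start 69 bp from the divergent start of BthD. Its highest candidate over both replicates was 29.97 with an IDR of 0.411, in a coding exon 417 bp downstream of the start. In replicate 1 the highest candidate at the start was 29.6 (IDR 0.730), and in replicate 2 there was no candidate inside the gene or within 1 kb. The E2F match TTGGCGC in the Ndc80 promoter was 202 bp upstream of the start, on the far side of the BthD start site.

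Nuf2 (FBgn0031886, chromosome 2L, 7064431 to 7065837, minus strand) was the only member with no candidate in either series list, although 8 of 9 members and 88.8% of coding genes had one in the list behind the reproducible set, and 8 of 9 and 90.9% in that behind the larger set. In replicate 2 it had none either, like Ndc80, where 7 of 9 members and 84.6% of coding genes had one. In replicate 1, where 9 of 9 members and 87.9% of coding genes had a candidate, it had 3. The highest of these, 46.9 with an IDR of 0.652, was past the 3' end of Nuf2 in a coding exon of Sem1, 142 bp from the Sem1 start. The others, 18.5 and 14.1, were 132 bp downstream and 107 bp upstream of the Nuf2 start. So no candidate recurred at Nuf2.

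Spc25 (FBgn0087021, chromosome 3R, 12961745 to 12963249, plus strand) had the candidate nearest to the threshold from outside in the list behind the reproducible set. Its candidate (12961484 to 12961827) had a height of 52.2 over both replicates, with an IDR of 0.0140 there and 0.0135 in the list behind the larger set. In replicate 1 it was 35.3 (IDR 0.0467) and in replicate 2 it was 23.6 (IDR 0.440), with summits 42 bp apart. The ratio of 1.5 was near the median of 1.32 over the 6408 coding genes with a candidate at the start in both lists. The summit over both replicates was 89 bp upstream of the Spc25 start but 13 bp from the start of the divergent gene grsm, whose nearest start is 102 bp from that of Spc25. A longer grsm transcript on the opposite strand spans Spc25, so the summit lies in an intron of grsm by the annotation.

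The Spc25 stretch is shown for its DRE, the element TATCGATA, which reads the same on both strands, is bound by the factor DREF and is known from fly replication genes; capitals mark it. The DRE was searched after the regions had been seen.
Spc25 (chr3R:12961644-12961744, plus strand): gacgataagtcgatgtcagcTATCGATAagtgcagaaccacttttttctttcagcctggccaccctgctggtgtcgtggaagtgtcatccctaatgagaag

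The DRE lay 11 bp from the summit and 78 bp upstream of the Spc25 start. It was between the divergent starts of Spc25 and grsm, which are 102 bp apart, and nearer to that of grsm. Spc25 was the single member with a DRE in its promoter, 1 of 9, and 9.36% of all coding promoters held one. Spc25 had no E2F consensus there. Of the whole regions in the reproducible set 4.60% held the DRE.

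The kinesins cmet and cana are related to the vertebrate motor CENP-E, which carries chromosomes along microtubules to the middle of the spindle. They form a divergent pair on chromosome 2L. The cmet gene (FBgn0040232, 11261026 to 11269002) is on the minus strand and cana (FBgn0040233, 11269780 to 11277846) on the plus strand, with 778 bp between their start sites. The region they share (11268955 to 11269298) was the highest of any member in the reproducible and the larger set. Its height of 92.0 put it at rank 2898 of 4439 in the reproducible set, with 34.7% of that set lower and a median height in the set of 113. The summit was intergenic, 125 bp upstream of the cmet start and 653 bp upstream of the nearest cana start.

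The cmet and cana region was higher in replicate 2 than in replicate 1, and below the median of the set in replicate 2 as well. In replicate 2 it was 59.7 with an IDR of 0.000215, and 44.0% of that set was lower. In replicate 1 the candidate at the same place was 32.3 with an IDR of 0.752 and was not in the replicate's set. The summits were 20 bp apart, the closest of the members with candidates at the start in both replicates. The ratio of replicate 1 over replicate 2, 0.541, was lower in 3.39% of those 6408 genes only.

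The stretch between cmet and the far end of this region is shown because it is the only sequence of a member in the reproducible set. Capitals mark the single match to the E2F core, GGCGC, read here from its other strand as GCGCC. The stretch holds no E2F consensus and no DRE.
cmet (chr2L:11269003-11269298, minus strand): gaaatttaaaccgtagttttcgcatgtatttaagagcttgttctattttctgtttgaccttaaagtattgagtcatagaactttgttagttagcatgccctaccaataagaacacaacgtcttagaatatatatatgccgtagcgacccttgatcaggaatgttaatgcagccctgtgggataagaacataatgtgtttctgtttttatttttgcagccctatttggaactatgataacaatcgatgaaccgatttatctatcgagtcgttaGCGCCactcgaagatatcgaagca

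The summit is base 172 of these 296 bases, of which 36.8% are G or C. The core match was 103 bp from the summit and 22 bp upstream of the cmet start. The whole region holds 1 more, GCCGC, in the exon that is left out. Of regions in the reproducible set 59.4% held the core.

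A second region near cana was in the set of replicate 1 (11277998 to 11278333) with a height of 55.1 and an IDR of 0.00506, and 23.7% of that set was lower. Its summit was 320 bp past the 3' end of cana, in the 5' UTR of the next gene, CG33695, and 15 bp from the start of that gene. By position it belongs to CG33695 and counts for cana only through the 1 kb rule. In replicate 2 the highest candidate in the same 5' UTR was 8.51, 45 bp from that start. In the list behind the reproducible set this region was 67.8 with an IDR of 0.778, and in the list behind the larger set its IDR was 0.0156. At the cana starts themselves the highest candidate was 8.41 in replicate 1 and 9.98 in replicate 2.

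Along cid, Cenp-C, cal1, Spc25 and cmet the highest candidate in each replicate had its summit 31 to 149 bp from the gene's own start site. At Mis12 it was 525 bp away in replicate 1 and 518 bp in replicate 2, and at cana 6350 and 654 bp. At Nuf2 it was 1709 bp away and at Ndc80 10 bp in replicate 1, and neither had a candidate in replicate 2. How often the highest candidate lies near the start over all coding genes was not counted. Inside the members and more than 500 bp from a start, the highest candidate was 25.2 in replicate 1, in Cenp-C, and 18.8 in replicate 2, in cmet. Of the 3 member regions in the replicates' own sets, 0 overlapped a region in the other replicate's set. The same share over all regions was not counted, so whether the members differ in this by region is not known. By gene, 2607 of 13945 coding genes (18.7%) had a region in every 1 of the 4 sets. In the set of replicate 1 3401 coding genes had a region, and in that of replicate 2 3117 did. Of the members 1 of 9 had a region in all 4 sets, cana, through a different region in each replicate. At 4 of the 7 members with a candidate at the start in both replicates, cid, Cenp-C, cal1 and Spc25, replicate 1 was the higher, and at Mis12, cmet and cana replicate 2 was. Of the 6408 coding genes with a candidate at the start in both, 74.0% were higher in replicate 1.

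**Figure D2:**
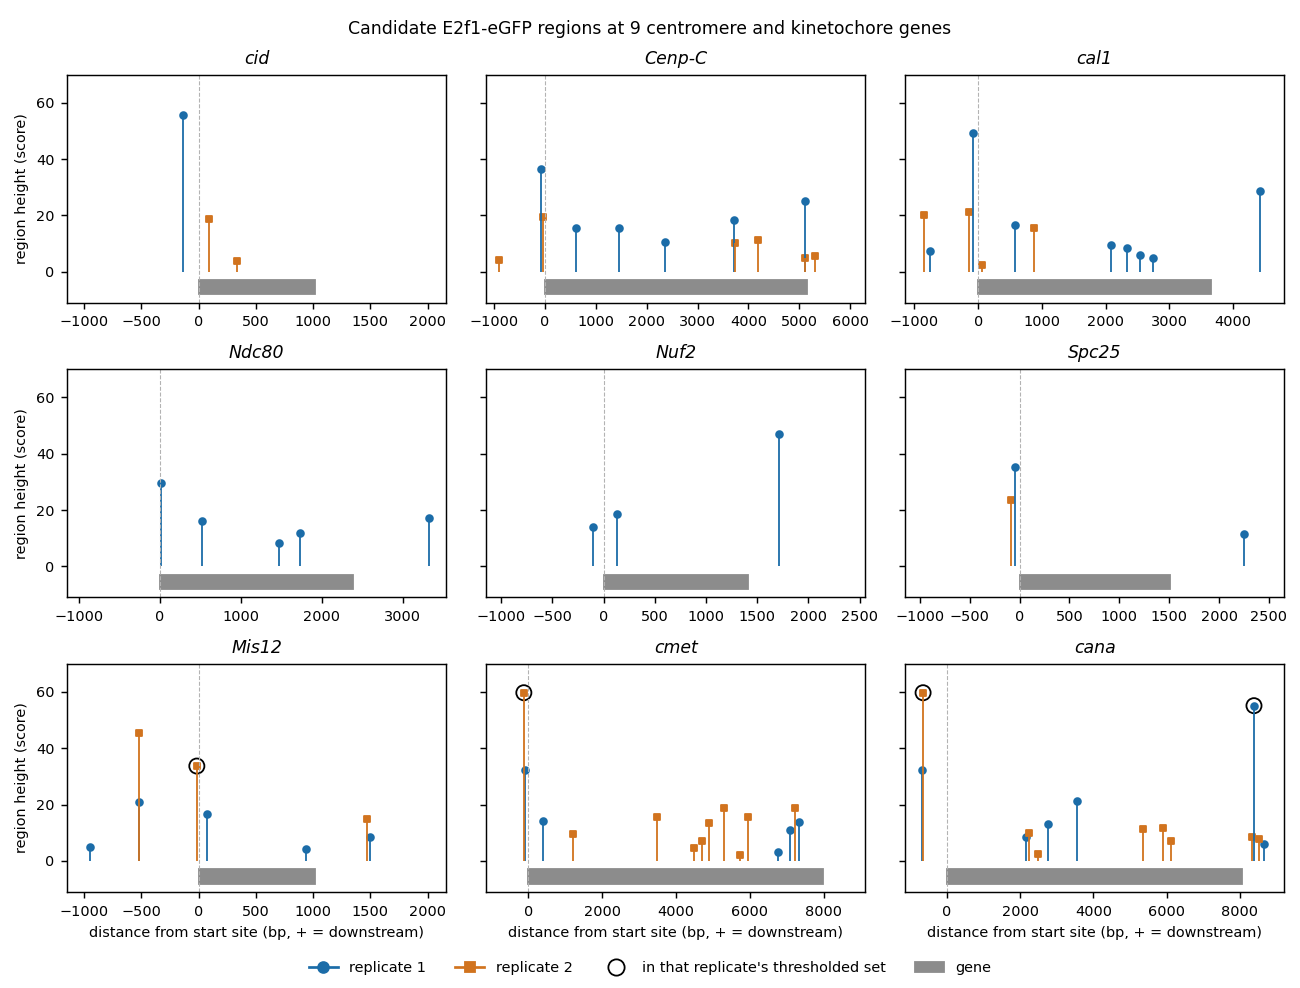
Each panel shows 1 gene, with the distance of the candidate's summit from the start site in bp on the horizontal axis and the region height (score) on the vertical axis; circles are replicate 1, squares replicate 2, the grey bar is the gene and black rings mark regions in that replicate's thresholded set. The cid, Cenp-C, cal1, Spc25 and cmet panels have their tallest candidates next to the start, and rings appear at Mis12, cmet and cana only. In the Mis12, Nuf2 and cana panels the tallest candidate stands farther from the start.

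Against all coding genes most members stood above the median of a weak range. The highest candidate within 500 bp of a start site had a median of 32.3 over the 9 members in replicate 1 and 17.9 over all 13945 coding genes, with genes without a candidate at 0. In replicate 2 the medians were 19.3 and 9.84. A candidate there was found at 65.4% of coding genes in replicate 1 and 56.9% in replicate 2, and at 9 and 7 of the members. In each replicate 7 of 9 members were above the median of all coding genes, Nuf2 in replicate 1 (51.3%) and cana in replicate 2 (50.2%) only just. The 90th percentile over all coding genes was 72.9 in replicate 1, which no member passed, and 56.7 in replicate 2, which cmet alone passed. The rank changed between the replicates: cid was above 86.0% of coding genes in replicate 1 and 70.5% in replicate 2, cal1 above 83.7% and 74.8%, Mis12 above 47.7% and 84.0%, and cmet above 72.8% and 90.5%. Cenp-C (76.4% and 71.7%) and Spc25 (75.6% and 77.6%) kept nearly the same rank in both.

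**Figure D3:**
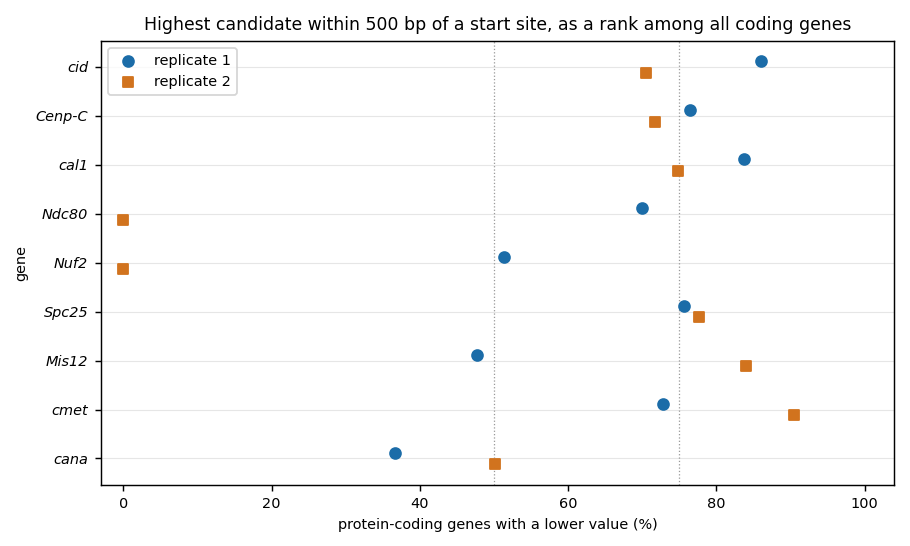
The horizontal axis is the percentage of all protein-coding genes with a lower highest candidate within 500 bp of a start site, for the 9 genes on the vertical axis; circles are replicate 1, squares replicate 2, and dotted lines stand at 50 and 75. Cenp-C and Spc25 have their markers close together, while Ndc80 and Nuf2 fall to 0 in replicate 2, where they have no candidate.

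Other genes of the centromere and kinetochore, 26 in a list, were counted by the same rule, and 8 of 26 had a region in the reproducible set (30.8%, beside 27.4% of coding genes), 10 in the larger set (38.5%), 6 in replicate 1 and 6 in replicate 2 (23.1% each). The 4 further genes of the Mis12 and Ndc80 network, Spc105R, Kmn1, Nnf1a and Nnf1b, had none in any set. Of all coding genes 32.6% had a region in at least 1 set. Kmn1, Nnf1a and Nnf1b are under 2 kb long, a class in which 16.5% of coding genes had a region in the reproducible set. Each of the other classes in the list had at least 1 gene with a region in the reproducible set; among them were 2 of 6 checkpoint genes and 2 of 2 inner centromere and regulator genes. The heights of the 8 genes with a region ran from 58.5 to 860, with a median of 107, and the shared cmet and cana region at 92.0 lay below that median.

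By the rule of 500 bp from a start site, 7 of those 8 had a region at their own start, all but rod. That is 7 of the 26 listed genes. Of all 13945 coding genes 2460 (17.6%) had one by this rule, where 3825 had a region by the 1 kb rule. In 3 of the 7, chb, polo and Incenp, no other coding start was closer to the summit. The microtubule plus-end protein chb had 3 regions in the reproducible set, the highest 450 in height and 229 bp from its start, and its highest was 258 in replicate 1 and 191 in replicate 2. The kinase gene polo had a region of 113, 34 bp upstream of its start (62.2 in replicate 1 and 50.5 in replicate 2). Incenp, a scaffold of the chromosome passenger complex, had 124 over both replicates, 33 bp downstream of its start, and 84.2 in replicate 1 but no region in the set of replicate 2.

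The other summits lay nearer to the start of another gene. The region at rod, a subunit of the checkpoint complex with Zw10 and Zwilch, was the highest at 860, but its summit was 7586 bp from the rod start and 136 bp from that of CG1635. Bub1 (85.1), a checkpoint kinase, had its summit 22 bp from the start of Nin and 295 bp from its own. Bub3 (94.7), its partner, was 102 bp from the start of Cap-D2, a condensin gene, and 128 bp from its own. The region at mei-S332 (101), the fly shugoshin that guards sister cohesion at centromeres, was 80 bp from Vrp1, and that at mod (58.5), which encodes modulo, a nucleolar protein, was 194 bp from krz. So 5 of the 8 were closest to the start of another gene, 4 of them within 500 bp of their own start as well.

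**Figure D4:**
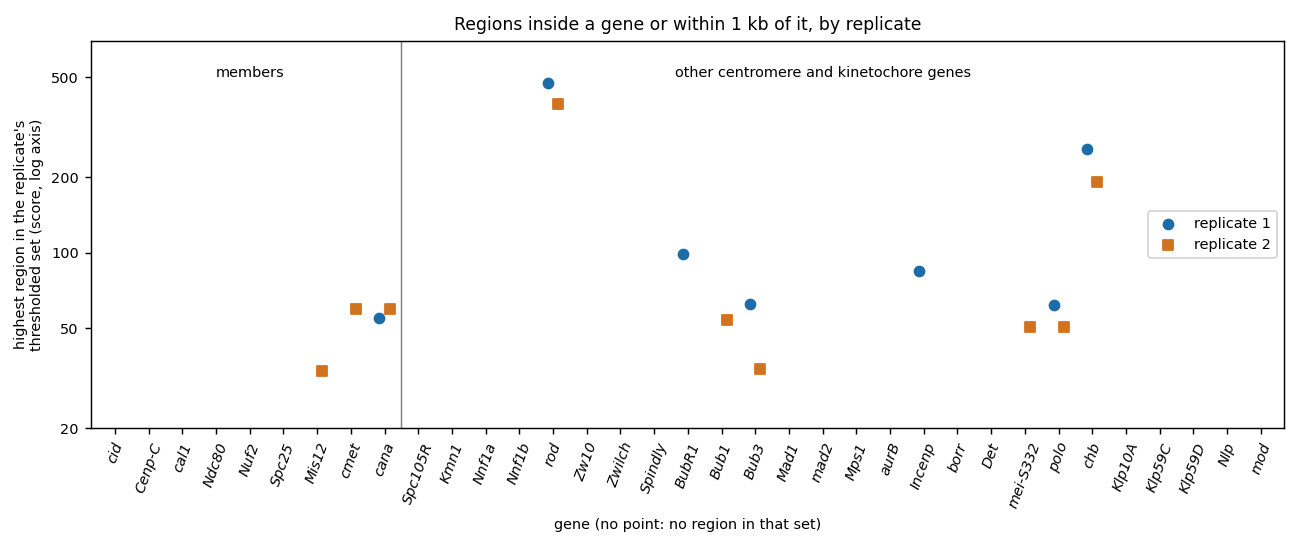
The vertical axis (log scale) is the height of the highest region in each replicate's thresholded set, inside the gene or within 1 kb of it, for the 9 members at left and 26 other genes at right; circles are replicate 1 and squares replicate 2. The members' points lie between 33.7 and 59.7, and rod and chb are the highest of the other genes.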

How the data were processed

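Whole-embryo ChIP-seq regions for E2f1-eGFP were taken as the authors deposited them, in dm6, the build named in the labels. Region heights are scores in the deposited files with no stated rescaling between libraries, and the authors deposited the global IDR as a −log10 value that stops at 5. The summit offset is another deposited column. For aligner and peak caller, names were not given in the sources used here, and read counts neither, so no depth or interval is given. Each set's list was identified as the one in which all its regions had a global IDR of 0.01 or lower.

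Genes and start sites came from Ensembl BDGP6.54 (release 115), sequence from RefSeq's Release 6. All coding genes on the main arms gave the background. The members, the gene lists and the rules were chosen with earlier results of these data known. Named genes were all members, the gene with the nearest start at each region, and listed genes with a region in the reproducible set. The DRE was added after the regions had been seen. The assignment and motif steps were checked on simulated data. Fragments were 200 to 800 bp long, per the labels. Work was done in Python 3.11.15 with numpy 2.4.6, pandas 2.3.3 and matplotlib 3.10.9. Each thresholded set taken alone, other IDR limits, other distances and other motif forms were tried.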

Additional observations from a re-analysis of the deposited data

How the results depend on the processing

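The count of members with a region was 2 in the reproducible set and 4 in the larger set. It was 0 at a global IDR of 0.001 (beside 2745 of 13945 coding genes), although cmet and cana passed that limit in the larger set at 0.000493 and in replicate 2 at 0.000215. It was 0 with the summit required inside the gene, 1 within 500 bp of a start site and 5 at a global IDR of 0.05. With 1 replicate left out it ran from 1 (replicate 1 alone) to 3 (replicate 2 alone). The number of distinct member regions was 1, against 3 in the larger set, 0 at an IDR of 0.001, 0 inside the gene only, 4 at an IDR of 0.05, and 1 to 2 with a replicate left out. Of all coding genes 3825 had a region, against 1641 with the summit inside the gene and 2460 within 500 bp of a start, and 3117 to 3401 with a replicate left out. Member regions with the E2F consensus numbered 0 in the reproducible set, 2 in the larger set and 1 with its core alone, and 0 in each replicate alone. Of all whole regions 14.8% held the consensus in the reproducible set, 16.1% in the larger set, 17% in replicate 1 and 11.8% in replicate 2. The core was in 59.4% of those in the reproducible set. The highest member region was 92.0 in height, and 55.1 to 59.7 with a replicate left out, where heights come from 1 library. A reach of 2 kb, any overlap of the region, narrower motif windows and other rules for a shared region left these counts as they were, save for the coding genes, at 4604 and 3956. The cause of the changes was not tested. The limit of an IDR of 0.05 was added after the data were seen. Every count of members rests on 3 regions or fewer at the authors' threshold, and unknown depth limits what a missing region means.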
